A study of Mus musculus with 4 samples.

Results

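The genes described here encode parts of the actin-based contractile cytoskeleton: the smooth muscle actins Acta2 and Actg2, the actin-binding proteins Tagln, Cnn1, Cnn2, Cald1 and Flna, the tropomyosins Tpm1 and Tpm2, and the myosin light chain Myl9. They were chosen by name, with earlier results of these data known. All 10 genes had at least 1 probe set annotated to that gene alone, which gave 18 probe sets of the 22626 on the arrays. Total RNA came from 3T3-F442A cells, a clonal mouse preadipocyte line that turns into fat cells in culture. The 2 arrays labelled shTRPV4 came from cells with stable expression of a short hairpin RNA against Trpv4, a calcium-permeable cation channel, and the 2 arrays labelled shGFP from cells with a control hairpin against GFP. Cells of both groups had been infected overnight with retrovirus, kept for 2 days under 2 ug/ml puromycin to select them, and grown in medium with 10% serum. At confluence they were given 850 nM insulin for 8 days, with rosiglitazone, a PPAR gamma agonist, for the first 2 days. No label says whether replicates were separate infections, cultures or hybridisations, so a p-value here reflects the spread among these 4 arrays and that spread may be technical. The comparison asks which of these transcripts differ in cells carrying the Trpv4 hairpin after this treatment.

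Thin filaments are polymers of actin. Tropomyosins lie along them and calponins, caldesmon and transgelin bind them, while phosphorylation of the regulatory myosin light chain switches on the motor that pulls on them. Filamin crosslinks filaments into networks and ties them to the membrane. Many of these genes are targets of serum response factor (SRF), which binds a DNA motif called the CArG box, and of its actin-sensing cofactors, the myocardin-related transcription factors (MRTFs). Preadipocytes are spread cells with actin stress fibres, and adipocyte differentiation is known to go with rounding of the cell and loss of those fibres.

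Of the 10 genes, 8 had promoters in the RefSeq table of GRCm38.p6, in 9 windows of 300 bases that run from 250 bases before to 50 bases after the annotated start. The CArG box was searched on both strands in its strict form, with 6 A or T bases between a pair of C and a pair of G. It lay in 2 of the 9 windows, those of Cnn2 and Myl9, against 1.63% of all 32851 promoters in the table. A relaxed form, chosen after seeing the data, lets 1 of the 6 central bases be C or G. It lay in 3 of the 9 windows, those of Acta2, Cnn2 and Myl9, against 9.98% of all promoters. The genes were chosen by name and many are known SRF targets, so these shares describe the list and test nothing. The matched stretches are shown so that the strict match of Cnn2, the member with the largest difference below, can be set beside those of Myl9 and Acta2. Capitals mark the 10-base match, and each sequence is given on the strand of its gene.
Cnn2 (chr10:79988519-79988578, plus strand, strict): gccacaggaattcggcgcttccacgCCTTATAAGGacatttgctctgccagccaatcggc
Myl9 (chr2:156775278-156775337, plus strand, strict): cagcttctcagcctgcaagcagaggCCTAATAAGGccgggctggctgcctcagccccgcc
Myl9 (chr2:156775340-156775399, plus strand, relaxed): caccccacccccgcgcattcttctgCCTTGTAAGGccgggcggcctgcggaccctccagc
Acta2 (chr19:34255423-34255482, minus strand, relaxed): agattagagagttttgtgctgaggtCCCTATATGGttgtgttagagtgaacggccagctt
Acta2 (chr19:34255374-34255432, minus strand, relaxed): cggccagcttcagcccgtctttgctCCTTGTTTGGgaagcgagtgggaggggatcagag
The Cnn2 match begins 56 bases before the start, those of Myl9 161 and 99 bases before it, and those of Acta2 84 and 34 bases before it. The windows of Flna, Tpm1, Tpm2, Cnn1 and Cald1 (which has 2) hold neither form, which says only that these letters are not in these windows.

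Values are deposited intensities of single arrays, on a linear scale. Differences are shTRPV4 minus shGFP of quantile-normalized log2(intensity + 16) values, fitted with limma over all 22626 probe sets. A probe set passed at a Benjamini-Hochberg adjusted p under 0.05. No background level is known for these readings. Those under the offset of 16 are taken as too dim for the size of a difference to be read. They make up 20.3% to 20.7% of the values on each array, and array medians ran from 129.4 to 144.0.

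The labels were checked first. The Trpv4 probe set read 80.1 and 79.5 in the shTRPV4 arrays and 43.7 and 93.8 in the shGFP arrays, so the groups overlap and the knockdown cannot be seen at this transcript. The difference was 0.32 (95% interval -0.55 to 1.19, limma adjusted p = 0.55). As for the cell type, the adipocyte genes Adipoq, Fabp4 and Pparg lay at or above the 96.2nd percentile of probe set levels, while Lep lay at the 25.5th. Of 16 adipocyte markers 15 were brighter than the median probe set, as were 15 of 24 markers of preadipocytes and fibroblasts. Among the latter, Col3a1 lay at the 99.9th percentile, Vim at the 99.8th and Dlk1 at the 95.2nd. These levels do not tell how completely the cultures had become fat cells. Plin1 is not analysed here. Levels of smooth muscle genes were mixed. Acta2 lay at the 95th percentile, and of 14 smooth muscle markers other than the members 6 were brighter than the median probe set, Mylk (78.3rd percentile) and Ldb3 (73.7th) being the brightest. Of the markers of mature smooth muscle, Myh11, smooth muscle myosin, read 18.3 and 24.6 in the shTRPV4 arrays and 11.8 and 18.7 in the shGFP arrays, around the offset, and Cnn1 was below the offset on all 4 arrays.

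Calponin 2, filamin A and tropomyosin 1 were lower in the shTRPV4 arrays. These were 4 of the 18 probe sets and 3 of the 10 genes, and 0 probe sets were higher. Over all probe sets 9.9% passed, 5.36% as lower and 4.54% as higher. Over all genes, each by its brightest probe set, 11.3% passed, 6% as lower and 5.33% as higher. That split rests on the scaling: 54.2% of all probe sets called were lower after quantile normalization, 65.9% with the values as deposited and 40.7% with median centring. The 4 member probe sets passed as lower with all 3 scalings. The other 14 member probe sets did not pass. The median difference over the 18 probe sets was -0.28, and over all probe sets 0.015. In deposited intensity, both shTRPV4 arrays read below both shGFP arrays for 10 of the 18, where 30.3% of all probe sets do so, and above them for 4, where 26.2% do so. RNA from a whole culture cannot tell fewer cells of a type from less RNA per cell.

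**Figure D1:**
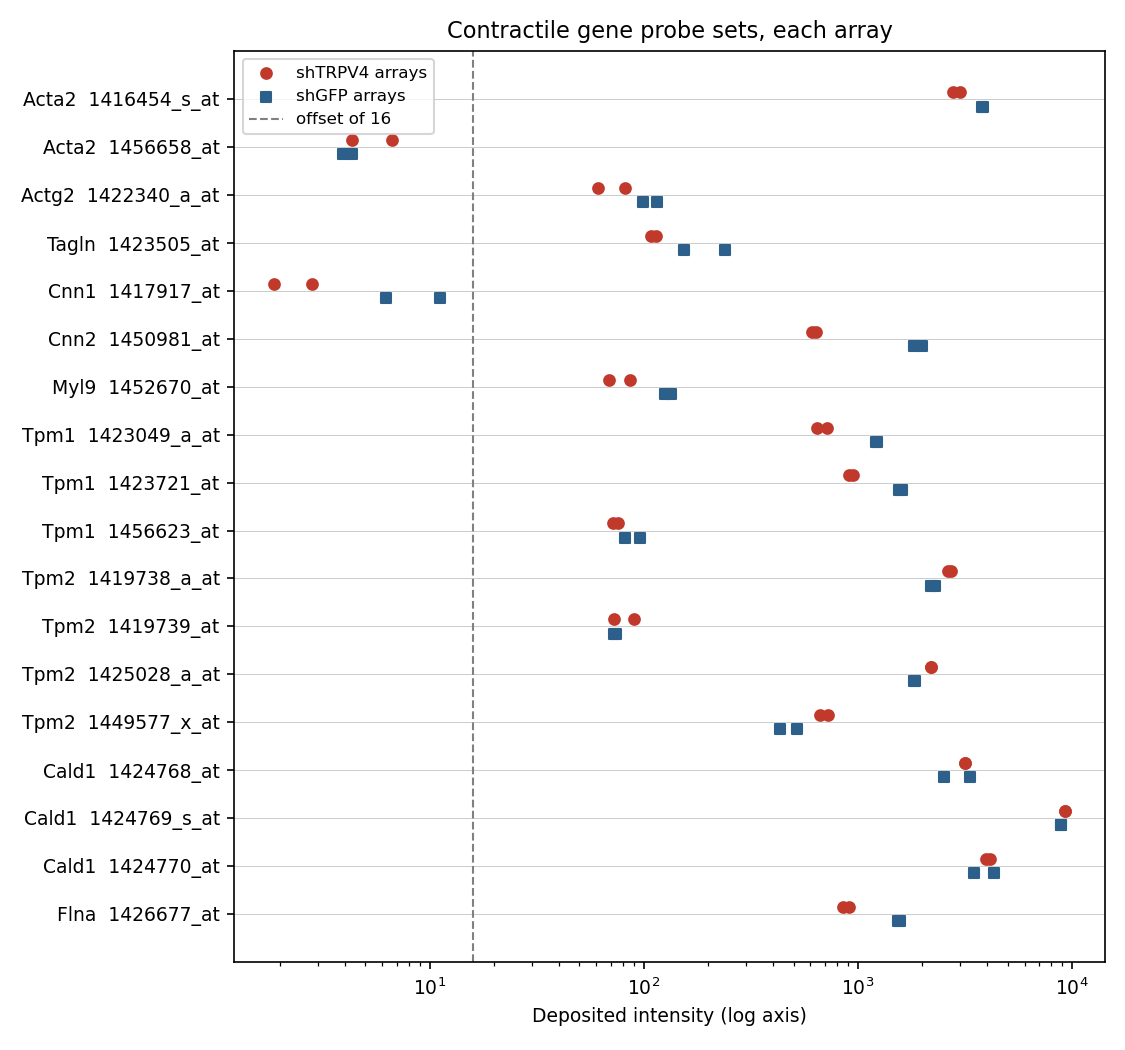
Deposited intensity (log axis) of each of the 18 probe sets on each array, with shTRPV4 arrays as red circles and shGFP arrays as blue squares, and the offset of 16 as a dashed line. The circles lie left of the squares for Cnn2, Flna and the brighter Tpm1 probe sets, and right of them for 3 of the 4 Tpm2 probe sets; 2 probe sets lie under the offset on all arrays.

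The smooth muscle actin genes did not pass. Acta2, whose protein marks smooth muscle and myofibroblasts, had a bright probe set (1416454_s_at) that read 3006 and 2777 in the shTRPV4 arrays and 3782 and 3857 in the shGFP arrays. The groups do not overlap, but the difference of -0.40 (SE 0.085, 95% interval -0.64 to -0.16) had a limma adjusted p of 0.070. It did pass after a filter on dim probe sets at the 25th or at the 50th percentile of level, with an offset of 64 and with an intensity trend in the variance (adjusted p from 0.0088 to 0.034 in those fits). Its other probe set, 1456658_at, read 4.33 and 6.69 in the shTRPV4 arrays and 3.94 and 4.34 in the shGFP arrays, under the offset throughout, and adds no level. Actg2, the enteric smooth muscle actin, read 81.7 and 61.2 in the shTRPV4 arrays and 115.2 and 99.1 in the shGFP arrays. Both shTRPV4 readings are the lower ones, yet the interval of the difference holds 0 (-0.41, 95% interval -0.88 to 0.058, limma adjusted p = 0.20). Actin coding sequences are nearly alike, and a probe set ending in _s_at can read several related transcripts, so the Acta2 reading may include other actins.

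Calponins bind actin and inhibit the myosin motor, and the 2 family members here differed in what could be read. Cnn2, the form found in many cell types outside muscle, read 607.7 and 636.7 in the shTRPV4 arrays, against 1990.2 and 1820.4 in the shGFP arrays. It was 2.92-fold lower on the log2(intensity + 16) scale (-1.55, SE 0.091, 95% interval -1.80 to -1.29, limma adjusted p = 0.0155), the largest difference among the 18 probe sets. Its promoter window holds a strict CArG box, as does that of Myl9, which did not pass. The windows of Flna and Tpm1, which have probe sets that passed, hold neither form. A link between the box and these differences was not tested. Cnn1, the smooth muscle form, read 2.82 and 1.87 in the shTRPV4 arrays and 6.25 and 11.1 in the shGFP arrays. All of its readings are under the offset, so the size of its difference is set by the offset (-0.42, limma adjusted p = 0.11; from -1.48 to -0.13 over the alternatives tried).

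Transgelin and caldesmon are thin filament proteins that stabilise or regulate actin, and neither passed. Tagln, an early marker of smooth muscle differentiation, read 107.9 and 114.3 in the shTRPV4 arrays, against 154.4 and 239.8 in the shGFP arrays. The shGFP arrays differ from each other by more than the lower of them differs from either shTRPV4 array. The difference was -0.63 (SE 0.20, 95% interval -1.20 to -0.065, limma adjusted p = 0.14), and it ranged from -0.91 without shGFP replicate 1 to -0.37 without shGFP replicate 2. It passed in 1 alternative, with probe sets under the 50th percentile left out (adjusted p = 0.027).

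Cald1, caldesmon, was bright on all 3 probe sets, and its differences were near 0. Probe set 1424768_at read 3159 and 3164 in the shTRPV4 arrays and 2527 and 3350.4 in the shGFP arrays, so the shGFP readings lie on both sides. The same holds for 1424770_at, with 3948 and 4140 in the shTRPV4 arrays against 3471 and 4296 in the shGFP arrays. Probe set 1424769_s_at read 9248 and 9286 in the shTRPV4 arrays and 8907 and 8861 in the shGFP arrays. Its deposited readings do not overlap, but that gap is gone after quantile normalization. The differences were 0.11 (95% interval -0.31 to 0.54), 0.072 (-0.25 to 0.39) and -0.00056 (-0.18 to 0.18). These intervals bound the difference in each direction and do not show that the levels are equal.

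Tropomyosin 1 was lower on 2 of its 3 probe sets, and tropomyosin 2 did not pass on any of 4. Tropomyosins form coiled coils along the actin filament, and both genes make muscle and non-muscle forms by splicing. Tpm1 probe set 1423049_a_at read 644.3 and 718.4 in the shTRPV4 arrays, against 1225 and 1215 in the shGFP arrays. It fell by 0.80 on the log2 scale (SE 0.074, limma adjusted p = 0.021). Probe set 1423721_at read 911.8 and 946.9 in the shTRPV4 arrays and 1609.9 and 1557 in the shGFP arrays, and also fell (-0.73, SE 0.071, limma adjusted p = 0.023). Both calls were lost with an offset of 1 (adjusted p = 0.051 and 0.052). The dimmest of its 3 probe sets, 1456623_at, did not pass, with 75.6 and 71.4 in the shTRPV4 arrays and 82.0 and 95.6 in the shGFP arrays (-0.15, 95% interval -0.39 to 0.086, limma adjusted p = 0.32).

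Every Tpm2 probe set had a positive difference, and none of the 4 passed. Probe set 1419738_a_at read 2621 and 2714 in the shTRPV4 arrays and 2200.4 and 2286 in the shGFP arrays (0.28, SE 0.061, 95% interval 0.10 to 0.45, limma adjusted p = 0.074). Probe set 1425028_a_at read 2198 and 2195 in the shTRPV4 arrays and 1818 and 1846 in the shGFP arrays (0.29, SE 0.065, 95% interval 0.11 to 0.48, limma adjusted p = 0.076). The groups do not overlap in either, nor in 1449577_x_at. That probe set, which can read related transcripts, had 725.8 and 665.8 in the shTRPV4 arrays and 433.2 and 521.7 in the shGFP arrays (0.58, SE 0.11, limma adjusted p = 0.056). These 3 probe sets passed as higher after a filter on dim probe sets at the 25th or at the 50th percentile, with an offset of 64 and with an intensity trend, with adjusted p from 0.0052 to 0.043. The dim 1419739_at overlapped between the groups (0.19, 95% interval -0.15 to 0.54). The 95% intervals of the 2 Tpm1 probe sets that passed lie wholly below 0, and those of the 3 brighter Tpm2 probe sets wholly above 0, but the difference between the 2 genes was not tested. With the probe sets of a gene averaged, Tpm1 differed by -0.56 (SE 0.057, limma adjusted p = 0.018) and Tpm2 by 0.34 (SE 0.072, limma adjusted p = 0.062).

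**Figure D2:**
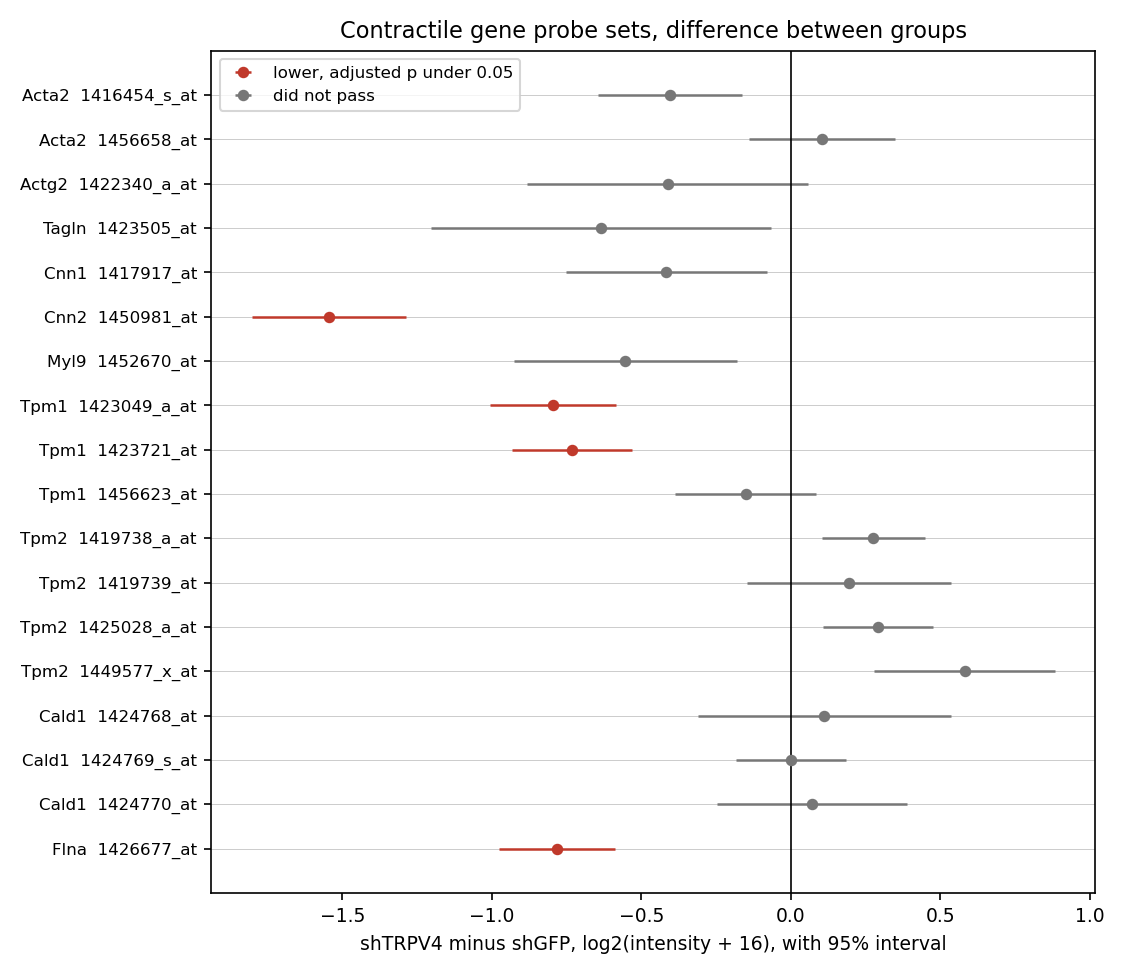
Difference between shTRPV4 and shGFP arrays on the log2(intensity + 16) scale for each of the 18 probe sets, with its 95% interval from limma. Red marks the 4 probe sets that passed as lower (Cnn2, Flna and 2 of Tpm1) and grey the 14 that did not pass; the brighter Tpm2 probe sets lie right of 0.

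Myl9, the regulatory myosin light chain of smooth muscle and non-muscle myosin, read 86.6 and 68.6 in the shTRPV4 arrays and 133.9 and 125.8 in the shGFP arrays. Both shTRPV4 readings are lower, and the difference of -0.55 (SE 0.13, 95% interval -0.93 to -0.18) had a limma adjusted p of 0.085. It passed with an offset of 64 (adjusted p = 0.0496) and with probe sets under the 25th percentile left out (adjusted p = 0.041). Flna, filamin A, read 853.9 and 906.7 in the shTRPV4 arrays, against 1577 and 1538 in the shGFP arrays. It was 1.72-fold lower (-0.78, SE 0.069, 95% interval -0.98 to -0.59, limma adjusted p = 0.020). The spread within each group was small beside the gap between the groups. Flna and Cnn2 passed in all 7 alternatives that used the 4 arrays without a block.

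Every member call was lost when 1 array was left out or the replicate number was used as a block. With any 1 of the 4 arrays left out, limma called 0 of 18 member probe sets, with 8 to 10 at an unadjusted p under 0.05, where 20.1% to 26.1% of all probe sets had such a p. With the block it called 0, with 12 at an unadjusted p under 0.05, where 30.3% of all probe sets had one. Those fits called 0 of all 22626 probe sets, and each has 1 residual degree of freedom. Over all alternatives the difference of Cnn2 ranged from -1.65 to -1.45, that of Flna from -0.83 to -0.72 and those of the 2 Tpm1 probe sets that passed from -0.84 to -0.73 and from -0.78 to -0.66. Some dimmer probe sets moved more: Actg2 ranged from -0.60 to -0.24 and Myl9 from -0.71 to -0.39. Tpm2 probe set 1419739_at ranged from 0.056 to 0.33. Level did not order these ranges throughout. The dim Tpm1 probe set 1456623_at ranged from -0.22 to -0.082, and the bright Cald1 probe set 1424768_at from -0.073 to 0.30.

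Of the other genes of the actin cytoskeleton listed here, more passed as lower than as higher. The list, like the marker lists below, was chosen with earlier results of these data known. Its counts are therefore a description and test nothing. Of 60 actin, myosin and actin-binding genes listed, 55 were measured, and 11 passed as lower, 1 as higher and 43 did not pass, against 6% and 5.33% of all genes. The list is bright, with 46 of the 55 above the median probe set. With probe sets under the 50th percentile left out, 20.1% of all genes passed as lower and 25.1% as higher. That is not the fit that gave 11 and 1, and the counts of the list were higher in it too, as given further below. Without that filter the median difference of the 55 genes was -0.18, and that of all genes 0.023. Several of the lower ones bind filaments or sit at focal adhesions. Fhl1, a LIM domain protein of stress fibres and muscle, read 51.0 and 56.5 in the shTRPV4 arrays, against 281.2 and 197.7 in the shGFP arrays (-1.80, SE 0.21, limma adjusted p = 0.030). Tagln2, the transgelin found outside smooth muscle, read 707.7 and 748.3 in the shTRPV4 arrays, against 1492 and 1662 in the shGFP arrays (-1.06, SE 0.071, limma adjusted p = 0.017), and its other probe set also fell (-1.54). Ezr, which links actin to the membrane, fell by 0.80, and Pdlim5, a LIM protein that binds alpha-actinin, by 0.79.

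The rest of those that fell had smaller differences. They were Zyx, zyxin of focal adhesions (-0.63), Tgfb1i1, the adhesion protein Hic-5 (-0.60), Fhl2 (-0.57), Palld, palladin of stress fibres (-0.54), Dstn, an actin-depolymerising factor (-0.48), Flnc, a filamin (-0.44), and Tpm4, a non-muscle tropomyosin (-0.39), the last chosen after its values were seen. The second Zyx probe set and 2 of the 7 of Pdlim5 did not pass. Among genes whose brightest probe set did not pass, a dimmer one of Fscn1 (-0.59) and of Lasp1 (-0.66) passed as lower and one of Rdx (0.49) as higher. Without any normalization Zyx and Tpm4 no longer passed, nor did Dstn and Tpm4 with median centring. The gene that rose was Mylk, the kinase that phosphorylates the regulatory myosin light chain. Its brightest probe set read 899.8 and 937.5 in the shTRPV4 arrays and 634.4 and 669.4 in the shGFP arrays (0.52, SE 0.061, limma adjusted p = 0.029), while its other 2 did not pass (0.49 and 0.18). The count moved with the fit, as did the share of all genes that passed: 22 were lower and 6 higher with an intensity trend (9.97% and 11.4% of all genes), and 2 and 0 with an offset of 1 (2.19% and 0.936%).

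The main cytoplasmic actins, chosen after their values were seen, did not pass. Actb read 11665 and 11811 in the shTRPV4 arrays and 11345 and 11221 in the shGFP arrays on its brightest probe set (0.0013, 95% interval -0.18 to 0.18). Its other probe set had a negative difference (-0.23, limma adjusted p = 0.17). Actg1 differed by -0.18 (limma adjusted p = 0.17).

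**Figure D3:**
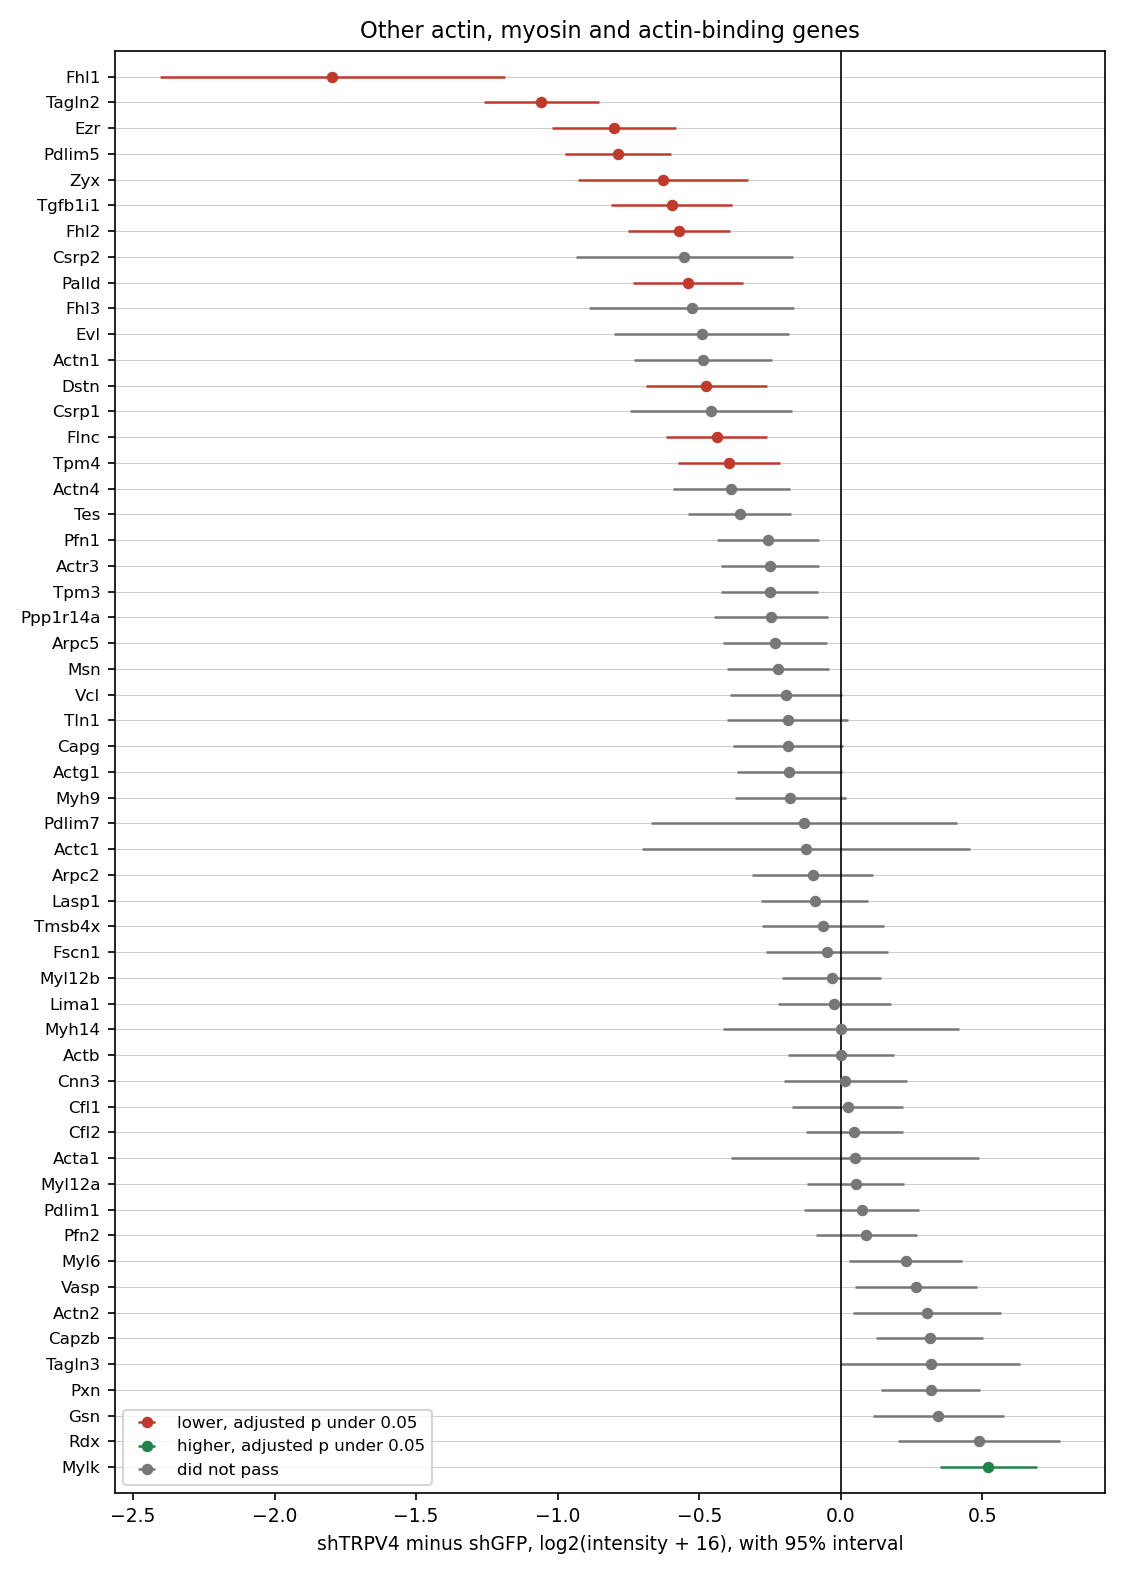
Difference between shTRPV4 and shGFP arrays on the log2(intensity + 16) scale, with its 95% interval from limma, for the brightest probe set of each of 55 other actin, myosin and actin-binding genes. Red marks the 11 that passed as lower, led by Fhl1 and Tagln2, green the 1 that passed as higher, Mylk, and grey the 43 that did not pass.

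Serum response factor and its myocardin-family cofactors were also read, chosen after their values were seen, and none of the 4 passed. Srf had 250.4 and 286.4 in the shTRPV4 arrays and 232.8 and 287.9 in the shGFP arrays, and the groups overlap. Mrtfa had 134.8 and 149.8 in the shTRPV4 arrays, both below the 151.4 and 187.4 of the shGFP arrays. Their differences were 0.12 and -0.14 (limma adjusted p = 0.55 and 0.45). Mrtfb (0.11, limma adjusted p = 0.48) and Myocd (0.17, limma adjusted p = 0.60) were dim, and the groups overlap for Myocd.

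None of the genes listed as smooth muscle markers, other than the members, passed as lower. Of 14 measured, 5 rose, 0 fell and 9 did not pass, with a median of 0.20. Among all genes, 5.33% passed as higher and 6% as lower. Ldb3, a Z-disc protein of striated muscle, read 1092 and 1000.0 in the shTRPV4 arrays and 333.2 and 311.9 in the shGFP arrays (1.69, SE 0.11, limma adjusted p = 0.016). The others were Mustn1 (0.92), Smtn, smoothelin (0.88), Mylk, which is also in the list above, and the intermediate filament gene Des (0.52), the last chosen after its values were seen. A dim probe set each of Ldb3 (-0.12) and Des (0.11) did not pass. With the values as deposited the count was 3, without Smtn and Des, where 3.07% of all genes passed as higher. The summed intensity of the list was 3691 and 3782 in the shTRPV4 arrays and 2184 and 2347 in the shGFP arrays. Most of that sum comes from the 5 genes that rose, Ldb3 and Mylk above all. Of the 14, 9 had a positive difference and 5 a negative one. Those 5 were Kcnmb1, Rgs5, Lmod1, Synpo2 and Itga8, all dimmer than the median probe set, and none passed. Of 14 skeletal muscle markers 1, Des, rose, and 5 were under the offset on all arrays. Ldb3 and Des are thus not particular to smooth muscle. Myh11 (0.28, limma adjusted p = 0.33) and Myocd (0.17, limma adjusted p = 0.60), also on the smooth muscle list, were dim and did not pass.

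Markers of other cell states moved as well, where 6% of all genes passed as lower and 5.33% as higher. Of the markers of preadipocytes and fibroblasts, 24 were measured: 8 fell, 0 rose and 16 did not pass (median -0.21), with a summed intensity of 90991 and 93423 in the shTRPV4 arrays and 101489 and 105187 in the shGFP arrays. The largest were Sfrp2 (-2.35), Pdgfra (-1.25), Dlk1 (-1.24) and Cd34 (-1.07), and 1 of the 24 was under the offset on all arrays. The adipocyte list had 16 measured genes, of which 6 rose, 1 fell and 9 missed the threshold (median 0.34), with a summed intensity of 96974 and 101670.0 in the shTRPV4 arrays and 85701 and 84202 in the shGFP arrays. Retn (1.90), Slc2a4 (1.16) and Cebpa (0.88) rose and Lep fell (-1.77). Of 15 macrophage markers, 3 fell and 1 rose, only 1 was brighter than the median probe set and 5 were under the offset on all arrays. Their summed intensity was 826 and 772 in the shTRPV4 arrays and 1113 and 1207 in the shGFP arrays. The part of these markers in the differences of Cnn2, Flna, Tpm1 and the other cytoskeletal genes was not tested.

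**Figure D4:**
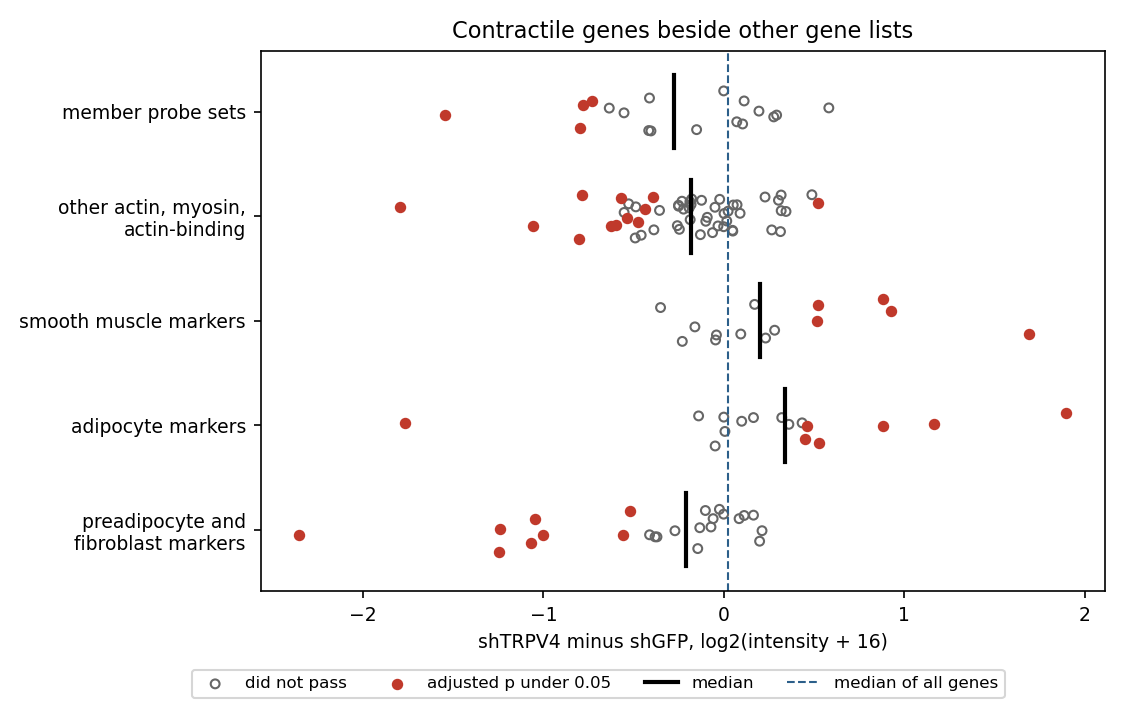
Differences between shTRPV4 and shGFP arrays on the log2(intensity + 16) scale for the 18 member probe sets and for the genes of 4 lists, each gene by its brightest probe set. Filled red points passed and open points did not, black bars are list medians (-0.28 for the members, -0.18 for other actin, myosin and actin-binding genes, 0.34 for adipocyte markers) and the dashed line is the median of all genes, 0.023; height within a row is arbitrary.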

How the data were processed

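The authors deposited 1 linear intensity per probe set and array from Affymetrix mouse arrays hybridised with biotin-labelled cRNA, per the labels' protocols. How they summarised, background-corrected and scaled the probes is not stated in those labels. Probe sets were named from the platform annotation: 20380 had 1 gene symbol, 691 several and 1555 none, and all 18 member probe sets matched a gene of GRCm38.p6 by its ID. Intensities were taken as log2(intensity + 16). Array medians spanned 0.14 on that scale, over the limit of 0.1, so values were quantile normalized. After quantile normalization 83 probe sets had no spread in either group, none of them a member's. Not all of this came from the normalization: Krt84 read 1 on all 4 arrays as deposited. The test was limma 3.58.1 (R 4.3.3; lmFit, then eBayes with 2 residual and 1.80 prior degrees of freedom), fitted over all 22626 probe sets, with Benjamini-Hochberg adjustment. A listed gene is given by its probe set with the highest mean. Precision is limited by having only 2 arrays a group. On simulated arrays with 22626 probe sets, the same fit recovered 45.5% of 200 changes of 1 log2 unit and 94.5% of 200 changes of 2 units. Only 200 probe sets were changed in each simulation, whereas 2240 passed in the data. With fewer changes the adjusted threshold is stricter, so these shares may not hold for the arrays here. The changed probe sets were drawn from those brighter than the median, so these shares do not cover dimmer members such as Actg2, Myl9 and Cnn1. Named were all member probe sets, by the rule, up to 10 genes past the threshold in each direction of the actin list, up to 4 of each marker list, 5 adipocyte genes as a check of the cell type, and Trpv4. Tpm4 and Des, past those limits, were named after their values were seen. A list of regulators is not reported here. The members and lists were chosen with earlier results of these data known. Alternatives changed the scaling, the offset, the filter on dim probe sets, the variance trend, the probe sets counted, the arrays used and the replicate block.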

Additional observations from a re-analysis of the deposited data

How the results depend on the processing

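Counts depend on how dim probe sets enter the fit, over all genes as in these lists. The 4 member probe sets passed as lower became 2 with an offset of 1, 5 with an intensity trend (Acta2 added) and 6 with an offset of 64 or a filter on dim probe sets at the 25th percentile (Acta2 and Myl9 added) or at the 50th (Acta2 and Tagln added). Those passed as higher, 0 after quantile normalization, were 1 with median centring and 3 with an offset of 64, with an intensity trend and after either filter, all of them of Tpm2. Of the other actin, myosin and actin-binding genes, 11 lower and 1 higher became 2 and 0 with an offset of 1, 21 and 5 with an offset of 64, 17 and 5 or 21 and 6 with a filter at the 25th or at the 50th percentile, and 22 and 6 with an intensity trend. Median centring gave 5 higher. The shares of all genes that passed as lower and as higher, 6% and 5.33%, moved too: to 2.19% and 0.936% with an offset of 1, 9.85% and 10.9% with an offset of 64, 12.3% and 13.5% or 20.1% and 25.1% with the filters, 9.97% and 11.4% with the trend, and 5.71% and 8.36% with median centring. With the replicate number as a block all 4 of these counts were 0. Replicates sharing a number deviated together only weakly (r = 0.12 over probe sets), and no label says that a number marks a pair. Leaving out 1 array gave between 0 and 0 for each of the 4 counts. The cause was not tested; fits with 1 array fewer or a block have 1 residual degree of freedom.

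The Cald1 differences, none of which passed, changed sign. Probe set 1424769_s_at (-0.00056) gave 0.061 with the values as deposited, 0.16 with median centring and from -0.025 to 0.027 with 1 array left out. In the fits with 1 array left out 1424768_at ranged from -0.073 to 0.30 and 1424770_at from -0.058 to 0.20. Both were lowest without shGFP replicate 1. With its probe sets averaged the gene differed by 0.061. All other member probe sets kept their sign in every alternative. Leaving out probe sets ending in _s_at or _x_at kept 4 lower and 0 higher. Depth is unknown for arrays, and no detection calls were used.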

Other observations

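The 8 further cytoskeletal gene families below were taken by gene symbol, after the member values were seen, and are given by their brightest probe sets. Some of their genes are also in the lists above, 12 of them in the LIM domain families. Of 17 tubulin genes 1 fell and 16 did not pass (median -0.15), and of 36 keratin genes 1 fell and 35 did not pass (median 0.0037). Both that fell, the neuronal tubulin gene Tubb3 and the epithelial keratin gene Krt7, were dim on all arrays. Kinesins were split, with 3 lower, 3 higher and 18 not passing. The lower ones, Kif23, Kif18a and Kif11, work in mitosis, and the higher ones, Kif1c, Kif1b and Kif3a, carry cargo along microtubules. Other kinesins of mitosis did not pass, such as Kif20a (-0.36) and Kif2c (-0.32), nor did the cargo carriers Kif5b (0.050) and Kif5c (-0.17). A split of the family by task was not tested. Of 25 myosin heavy chain genes Myo1h fell (-0.62), Myo18a rose (0.47) and 23 did not pass (median 0.080). Of 8 troponin genes Tnnt2 rose (0.51) and 7 did not pass, and of 10 septin genes Septin8 rose (0.49) and 9 did not pass. LIM domain families were split too: of 26 genes, 5 fell and 4 rose, of which 4 and 1 were counted above. Ldb3, Pdlim4 (1.11), Lims2 (1.03) and Lpp (0.51) rose, while Fhl1, Pdlim5, Pdlim2 (-0.64), Zyx and Fhl2 fell. Ankrd1, a stretch-responsive ankyrin-repeat gene of muscle, read 72.5 and 77.4 in the shTRPV4 arrays and 164.9 and 202.9 in the shGFP arrays (-1.06, limma adjusted p = 0.022), while its relative Ankrd2 did not pass (0.20). Among all genes 6% passed as lower and 5.33% as higher.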
